A study of Mus musculus with 9 samples.

Results

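The genes described here are 33 genes of programmed cell death in mouse macrophages, chosen by symbol for their known roles: 7 anti-apoptotic genes of the BCL2 family, 3 effectors, 8 BH3-only genes, Apaf1 with 4 caspases, 3 inhibitors of apoptosis with their antagonist Diablo, and 6 genes of death receptor signalling and necroptosis. All 33 symbols matched 1 of the 55487 Ensembl gene identifiers counted in every library. RNA came from RAW264.7 cells, an established mouse macrophage line, cultured without any stimulation, in 3 genotypes with 3 libraries each. Wild-type macrophages carried CEBPD unedited. Knock-out macrophages carried out-of-frame CRISPR/Cas9 deletions in CEBPD, the gene for the transcription factor C/EBPδ. The ΔTAD macrophages carried in-frame deletions that remove its transactivation domain. The edited cells were grown out from single cells, and the submitters describe independent clones, but the labels do not tie a library to a clone, so the p-values measure the spread between these libraries.

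Apoptosis through mitochondria is set by the BCL2 family. Anti-apoptotic members such as MCL1 and BCL-XL restrain the effectors BAX and BAK, BH3-only proteins release this restraint or activate the effectors, and the permeabilized mitochondria let out factors with which APAF1 activates caspase-9 (initiator) and then the executioner caspases. Death receptors such as FAS reach the same caspases from the cell surface through FADD and caspase-8, with c-FLIP (Cflar) as a brake, and RIPK3 and MLKL carry out necroptosis, a lytic death that proceeds when caspase-8 is blocked. In macrophages these routes decide how long a cell outlives activation or infection, and MCL1 and BCL2A1 are known survival factors of myeloid cells.

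Libraries held 16113306 to 20981829 counts on genes. A count of 3, taken as the floor of detection, was worth 0.143 to 0.210 CPM, a count relative to the library's total after TMM scaling in edgeR. ΔTAD replicate 1 stood apart in that a single gene, CT010467.1, held 11.0% of its counts, against at most 1.16% in the other libraries. Cebpd itself had between 70 and 130 counts in every library and was called in no comparison below, and reads from outside a deletion do not check the genotype. It shares 562 exonic bases with Spidr on the opposite strand. The strand setting of the counting is not known, so reads of Spidr may be among these counts. All 12 macrophage markers examined were present in each genotype, with a summed level of 4176 to 4371 CPM in wild-type, 5798 to 6242 CPM in knock-out and 8409 to 8649 CPM in ΔTAD libraries. Lyz2 made up much of the difference in this sum, with mean levels of 1167, 2114 and 4191 CPM. Of the 12 markers 9 were called higher and 1 lower in knock-out, and 10 higher and 1 lower in ΔTAD macrophages, the lower one being Fcgr1 in both (log2 −1.14 and −0.44). Csf1r (log2 −0.06) and Itgam (−0.16) were not called in knock-out macrophages, nor Itgam (−0.14) in ΔTAD macrophages. The part of these differences in the results below was not tested. No marker of T or B cells, fibroblasts or epithelial cells exceeded 3 counts in any library. Of 4 endothelial markers Pecam1, Kdr and Cdh5 exceeded 3 counts in a wild-type library and Tek had at most 1 count in any library, and the 4 together summed to 2.66 to 4.04 CPM in wild-type and at most 0.844 CPM in edited libraries.

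To compare levels between genes, CPM values were divided by the summed exon length in kilobases (RPKM). In wild-type macrophages Mcl1 was the highest of the 33 genes, at 184.5 ± 1.91 RPKM (SD, n = 3), followed by the effectors Bak1 at 103.05 ± 5.35 RPKM and Bax at 58.5 ± 1.62 RPKM and by Bid at 42.0 ± 0.367 RPKM. These kept the first 4 places in all 3 genotypes. Bid and 6 others made up the 7 genes between 10 and 50 RPKM, 16 genes lay between 1 and 10 RPKM and 7 under 1 RPKM. In 18 of the 32 steps of this order the wild-type libraries of neighbouring genes overlapped, so that for instance Bad, Birc2 and Bcl2l2, at 5.96, 5.96 and 5.95 RPKM, could not be ranked. At the low end stood the death receptors Fas, at 0.127 RPKM, and Tnfrsf10b, at 0.102 RPKM, and the BH3-only genes Bik, with at most 1 count in any library, and Hrk, with 0 counts in all 9 libraries. A count of 0 allows up to 0.210 CPM of Hrk in the library with the highest floor, and such floors cover counting error only.

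**Figure D1:**
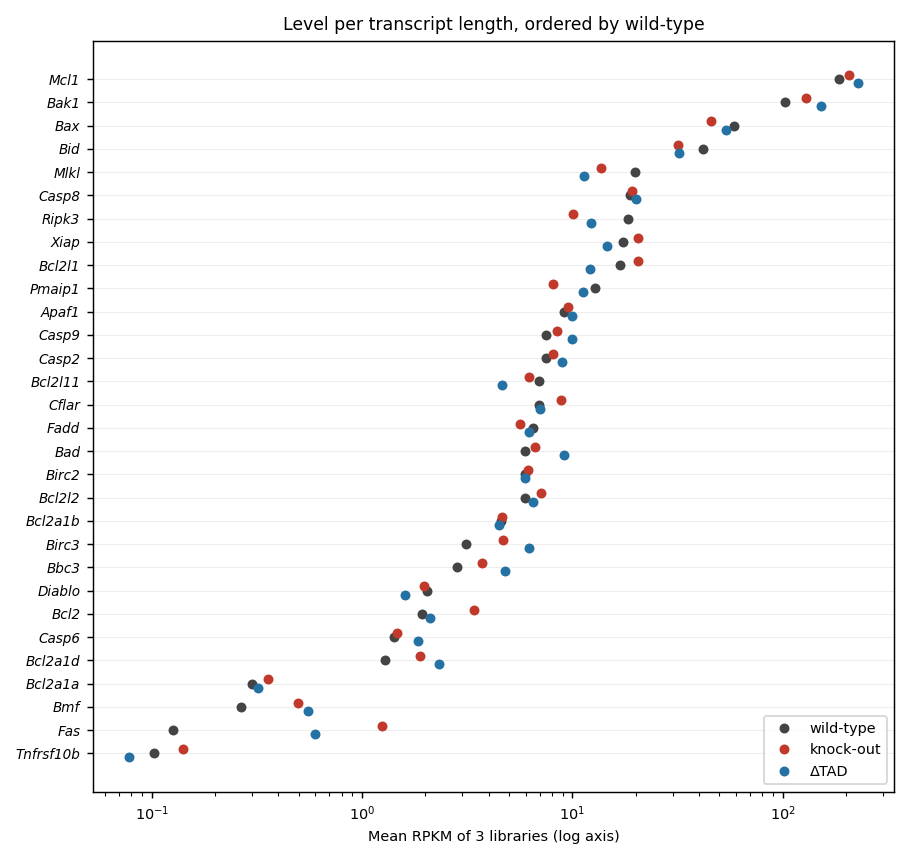
Mean RPKM of 3 libraries (log axis) of the 30 genes with a mean above 0 in every genotype, ordered from top to bottom by the level in wild-type macrophages. Points show wild-type, knock-out and ΔTAD macrophages. Mcl1, Bak1, Bax and Bid hold the top 4 places in all 3 genotypes, and the genotypes of Fas lie farthest apart.

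Next, the genotypes were compared in a single edgeR quasi-likelihood model of all 14312 genes that passed the filter on low counts, and a gene was called at an adjusted p-value under 0.01 (Benjamini-Hochberg over all genes tested). Changes are given as log2 ratios of the genotype named first to the other. The filter kept 29 of the 33 genes and left out Bcl2a1a, Bok, Bik and Hrk. Fas passed it only through its counts in the edited genotypes, and Tnfrsf10b only through knock-out macrophages. In knock-out macrophages 18 of the 29 genes differed from wild-type, 12 higher and 6 lower, where 45.2% of all genes tested were called. In such bulk samples fewer cells that express a gene and less RNA of it per cell cannot be told apart. In ΔTAD macrophages 21 differed, 12 higher and 9 lower, against 49.7% of all genes. Directly compared, knock-out and ΔTAD macrophages differed in 16 of the 29 genes, 7 higher and 9 lower in knock-out, against 33% of all genes, and with library size as the only scaling 11 were called, 8 higher and 3 lower. Over the 29 genes the median log2 ratio to wild-type was 0.16 for knock-out and 0.09 for ΔTAD macrophages, beside −0.00105 and −0.00332 for all genes tested. Libraries of the 2 genotypes did not overlap for 20, 24 and 22 of the 29 genes in these 3 comparisons, while 59.7%, 63.1% and 52.8% of all genes did not overlap.

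Both edited genotypes were set against the same wild-type libraries. With that shared reference, 7 genes were higher in both (Mcl1, Bak1, Bmf, Bbc3, Casp9, Birc3 and Fas) and 6 were lower in both (Bax, Bid, Bcl2l11, Pmaip1, Ripk3 and Mlkl), where 32.7% of all genes were called in the same direction. Bcl2l1 and Xiap were called in opposite directions, as were 1.26% of all genes. No difference was called in any comparison for Bcl2a1b, Casp8, Birc2, Fadd and Tnfrsf10b. Most changes were small. Among the called genes 6 in knock-out, 9 in ΔTAD and 3 in the direct comparison changed by a log2 ratio of 0.58 or more in size, beside 16%, 19.4% and 8.01% of all genes tested. A log2 ratio of 1 or more in size was reached by 1, 3 and 1 of them, beside 7.66%, 9.31% and 3.93% of all genes.

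**Figure D2:**
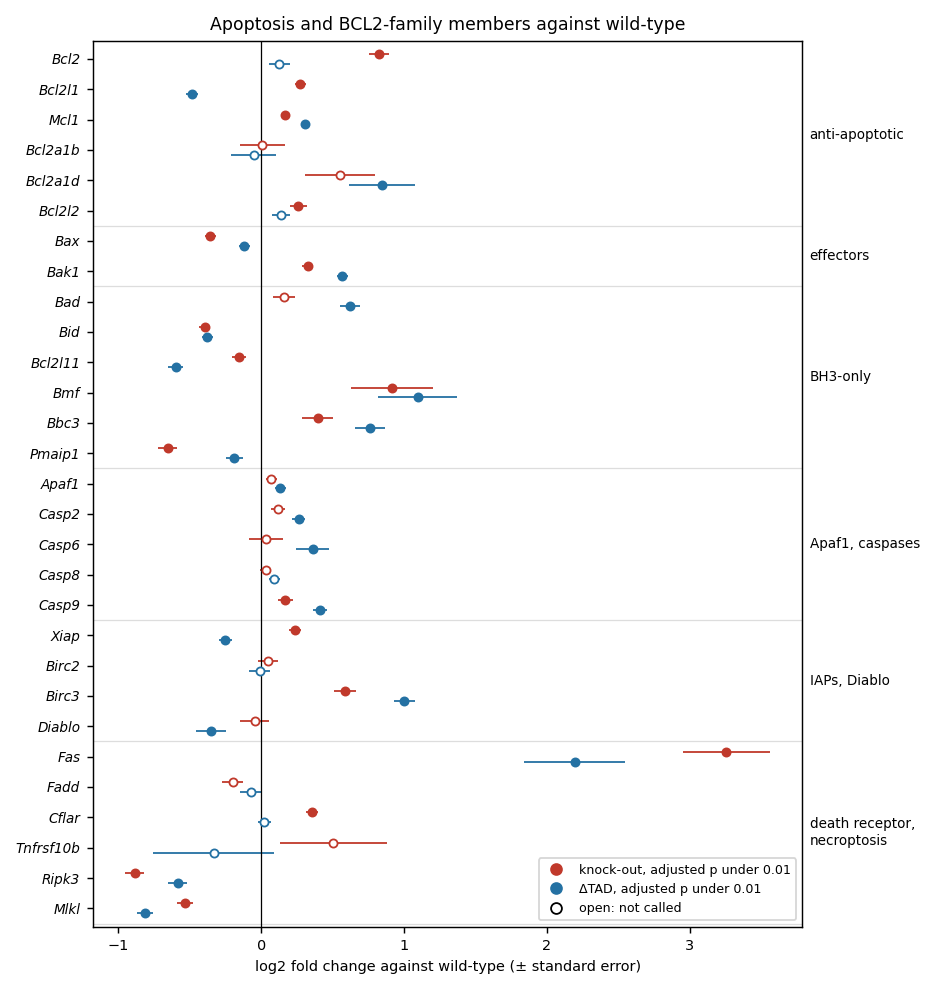
Log2 ratio against wild-type with its standard error (x axis) for the 29 genes tested, grouped by role. Red points stand for knock-out and blue points for ΔTAD macrophages, filled where the adjusted p-value was under 0.01 and open where it was not. Fas lies farthest to the right at 3.26 and 2.19, and Ripk3 and Mlkl lie to the left of 0 in both genotypes.

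Of the anti-apoptotic genes, Bcl2 rose in knock-out macrophages and Bcl2l1 fell in ΔTAD macrophages, while Mcl1 rose in both. Bcl2, the founding member of the family, measured 18.2, 15.9 and 18.7 CPM in the wild-type, 32.4, 31.8 and 29.6 CPM in the knock-out and 19.6, 19.4 and 18.8 CPM in the ΔTAD libraries. All knock-out libraries lay above all others. Its log2 ratio was 0.83 in knock-out (standard error 0.0695, edgeR adjusted p = 2.51e-10), 0.13 in ΔTAD (standard error 0.0742, edgeR adjusted p = 0.147) and 0.70 between knock-out and ΔTAD macrophages (standard error 0.0681, edgeR adjusted p = 1.26e-08).

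Bcl2l1, which encodes BCL-XL, separated the 3 genotypes. It had 82.2, 75.9 and 74.9 CPM in wild-type, 93.9, 98.4 and 90.1 CPM in knock-out and 52.7, 57.7 and 55.8 CPM in ΔTAD libraries. Knock-out libraries were highest and ΔTAD libraries lowest, with no overlap. The log2 ratio was 0.27 in knock-out (standard error 0.0415, edgeR adjusted p = 4.15e-06) and −0.48 in ΔTAD macrophages (standard error 0.0441, edgeR adjusted p = 9.09e-10), which left knock-out macrophages 1.69-fold above ΔTAD macrophages (log2 0.76, standard error 0.0432, edgeR adjusted p = 6.78e-13).

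Mcl1, whose short-lived protein guards BAK, rose from 630.8 ± 6.52 CPM (SD, n = 3) to 707.7 ± 11.7 CPM in knock-out and 780.4 ± 16.4 CPM in ΔTAD macrophages, log2 ratios of 0.17 and 0.31 (edgeR adjusted p = 3.80e-05 and 2.55e-09). In knock-out macrophages the call was lost with library size as the only scaling (edgeR adjusted p = 0.0463). Bcl2l2, which encodes BCL-w, rose in knock-out macrophages by a log2 ratio of 0.26 (edgeR adjusted p = 0.000760) and had 0.14 in ΔTAD macrophages (edgeR adjusted p = 0.0565).

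Summed per length, the 7 anti-apoptotic genes came to 215.5 ± 1.42 RPKM (SD, n = 3) in wild-type, 245 ± 3.81 RPKM in knock-out and 256.1 ± 4.47 RPKM in ΔTAD macrophages. Mcl1 supplied most of this sum, namely 85.6% ± 0.552 for wild-type, 84.5% ± 0.145 for knock-out and 89.1% ± 0.422 for ΔTAD macrophages. Reads that match several Bcl2a1 copies are missing from the sum, so the shares of the other genes may be too high. The share of Bcl2l1 was 7.86% ± 0.388 for wild-type, 8.38% ± 0.389 for knock-out and 4.72% ± 0.285 for ΔTAD macrophages. The libraries of the 3 genotypes did not overlap in this sum. Between the edited genotypes, Bcl2l1 and Bcl2 were higher in knock-out macrophages and Mcl1 in ΔTAD macrophages (log2 −0.14, edgeR adjusted p = 0.000427, lost in 2 of 18 alternatives).

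The Bcl2a1 genes are near-identical copies on chromosome 9, and reads that match several of them equally well are not counted. Their single values are therefore uncertain, and adding the copies up does not bring such reads back. Bcl2a1b also shares 401 exonic bases, 49.1% of its exons, with Gm29094 on the same strand, and reads there may be missing too. Bcl2a1b had between 54 and 81 counts in every library and was not called, at a log2 ratio of 0.0077 for knock-out and −0.05 for ΔTAD macrophages. Bcl2a1d had 1.15, 0.926 and 1.27 CPM in wild-type, 1.58, 1.45 and 1.87 CPM in knock-out and 1.89, 2.305 and 1.81 CPM in ΔTAD libraries. All edited libraries lay above the wild-type ones. The log2 ratio was 0.85 for ΔTAD macrophages (standard error 0.232, edgeR adjusted p = 0.00292), a call lost in 3 of 18 alternatives, and 0.55 in knock-out macrophages (edgeR adjusted p = 0.0586). Bcl2a1a had between 0 and 10 counts per library and overlapped between all genotypes. With the 4 copies added up, Bcl2a1c included, the sum had 83 to 110 counts in wild-type, 92 to 111 in knock-out and 89 to 128 in ΔTAD libraries, and was not called in knock-out (log2 0.15, standard error 0.125, edgeR adjusted p = 0.313) or ΔTAD macrophages (log2 0.22, standard error 0.123, edgeR adjusted p = 0.131).

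The effectors moved apart. Bax, whose protein moves from the cytosol to permeabilize the outer mitochondrial membrane, had 92.3 ± 2.56 CPM in wild-type (SD, n = 3) and fell to 72.1 ± 2.53 CPM in knock-out macrophages (log2 −0.36, edgeR adjusted p = 1.39e-08). In ΔTAD macrophages it was 84.8 ± 3.48 CPM (log2 −0.12, edgeR adjusted p = 0.00741), a call lost in 9 of 18 alternatives. Bak1, its membrane-resident counterpart, had 262.8, 241.8 and 239.5 CPM in wild-type, 312.8, 309.1 and 310.8 CPM in knock-out and 356.8, 366.3 and 379.5 CPM in ΔTAD libraries. The genotypes did not overlap. For Bak1 the log2 ratio was 0.33 in knock-out (edgeR adjusted p = 1.16e-07) and 0.57 in ΔTAD macrophages (edgeR adjusted p = 4.90e-12). Bak1 lies on chromosome 17, whose 746 tested genes had a median log2 ratio to wild-type of 0.48 (knock-out) and 0.50 (ΔTAD), and the 41 tested genes within 1 Mb of it had medians of 0.48 and 0.56. The part of this shift in the change of Bak1 was not tested. No other of the 33 genes lies on chromosome 17 or on chromosome 12, which was shifted downward. The ratio of Bak1 to Bax per length was 1.76 ± 0.0903 (SD, n = 3) for wild-type, 2.83 ± 0.0835 for knock-out and 2.84 ± 0.0537 for ΔTAD macrophages.

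Bok, the third effector-type gene, was low in wild-type macrophages, with 14, 3 and 7 counts, and had 0 counts in all 6 edited libraries. The wild-type mean of Bok was 2.54-fold above the floor of 3 counts per library in knock-out and 2.61-fold above it in ΔTAD macrophages. The wild-type library with 3 counts was itself at the floor, so against it no fall is shown. It did not pass the filter on low counts, and no test of it is given.

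BH3-only genes, the sensors of the family, were called in both directions. Bmf and Bbc3 rose and Bid, Bcl2l11 and Pmaip1 fell in both edited genotypes, and Bad rose in ΔTAD macrophages. In knock-out macrophages 2 of the 6 tested were higher and 3 lower, and in ΔTAD macrophages 3 were higher and 3 lower, where 45.2% and 49.7% of all genes were called.

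Pmaip1 encodes NOXA, which antagonizes MCL1. It measured 34.2, 35.7 and 34.8 CPM in wild-type, 20.5, 22.8 and 23.2 CPM in knock-out and 31.5, 28.8 and 31.6 CPM in ΔTAD libraries. The knock-out libraries were lowest and the ΔTAD libraries lay between the other two genotypes. In knock-out macrophages it fell 1.58-fold (log2 −0.66, standard error 0.0642, edgeR adjusted p = 3.72e-09). In ΔTAD macrophages the log2 ratio was −0.19 (standard error 0.0608, edgeR adjusted p = 0.00992), just under the threshold and lost in 10 of 18 alternatives.

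Bcl2l11 encodes BIM, a BH3-only protein that binds all anti-apoptotic members. Wild-type was again highest, but the edited genotypes stood in the reverse order. Levels were 57.1, 52.5 and 57.8 CPM in wild-type, 48.2, 51.5 and 50.5 CPM in knock-out and 39.0, 35.0 and 37.1 CPM in ΔTAD libraries. All ΔTAD libraries lay below the others. The log2 ratio was −0.60 in ΔTAD (standard error 0.0513, edgeR adjusted p = 2.91e-10) and −0.16 in knock-out macrophages (standard error 0.0494, edgeR adjusted p = 0.00866), the latter lost in 9 of 18 alternatives. The direct comparison gave knock-out macrophages 1.36-fold more Bcl2l11 (edgeR adjusted p = 2.93e-07), and for Pmaip1 1.38-fold less (edgeR adjusted p = 3.28e-06). Bcl2l11 and Bcl2l1 were both lowest in ΔTAD macrophages, and their ratio per length was 0.411 ± 0.0256 (SD, n = 3) for wild-type, 0.304 ± 0.0141 for knock-out and 0.382 ± 0.0381 for ΔTAD macrophages.

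Bbc3, which encodes PUMA, had 6.53, 5.15 and 6.30 CPM in wild-type, 7.80, 8.04 and 7.88 CPM in knock-out and 10.5, 10.1 and 9.99 CPM in ΔTAD libraries. The genotypes formed 3 separate steps. In ΔTAD macrophages the log2 ratio was 0.76 (standard error 0.104, edgeR adjusted p = 8.70e-07), and in knock-out macrophages 0.39 (standard error 0.110, edgeR adjusted p = 0.00381), lost in 4 of 18 alternatives.

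Bad, whose protein is held in check by survival-factor signalling, had 15.4, 14.3 and 16.1 CPM in wild-type, 16.3, 17.5 and 17.3 CPM in knock-out and 23.9, 22.1 and 24.5 CPM in ΔTAD libraries. The ΔTAD libraries were above all others, with a log2 ratio of 0.62 (standard error 0.0726, edgeR adjusted p = 6.89e-08). In knock-out macrophages it was 0.16 (standard error 0.0770, edgeR adjusted p = 0.0902). Bad shares 524 exonic bases with Gpr137 on the opposite strand, and the strand setting of the counting is not given in the sources used here, so reads of the pair may be mixed.

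Bmf, a BH3-only gene linked to loss of attachment, was low and scattered, at 1.40, 0.926 and 1.88 CPM in wild-type, 2.69, 1.63 and 3.51 CPM in knock-out and 1.89, 3.60 and 3.19 CPM in ΔTAD libraries. Knock-out libraries overlapped with wild-type ones, and the lowest ΔTAD library lay just above the highest wild-type one. The log2 ratio was 0.91 in knock-out (standard error 0.287, edgeR adjusted p = 0.00931, lost in 7 of 18 alternatives) and 1.09 in ΔTAD macrophages (standard error 0.278, edgeR adjusted p = 0.00157, lost in 2 of 18). Bid, which links death receptors to the mitochondrial route, fell from 149.1 ± 1.30 CPM (SD, n = 3) to 113.2 ± 6.41 CPM in knock-out and 114.8 ± 4.64 CPM in ΔTAD macrophages, log2 ratios of −0.40 and −0.38 (edgeR adjusted p = 3.48e-09 and 6.39e-09). Its exons share 628 bases with Bcl2l13 on the opposite strand.

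**Figure D3:**
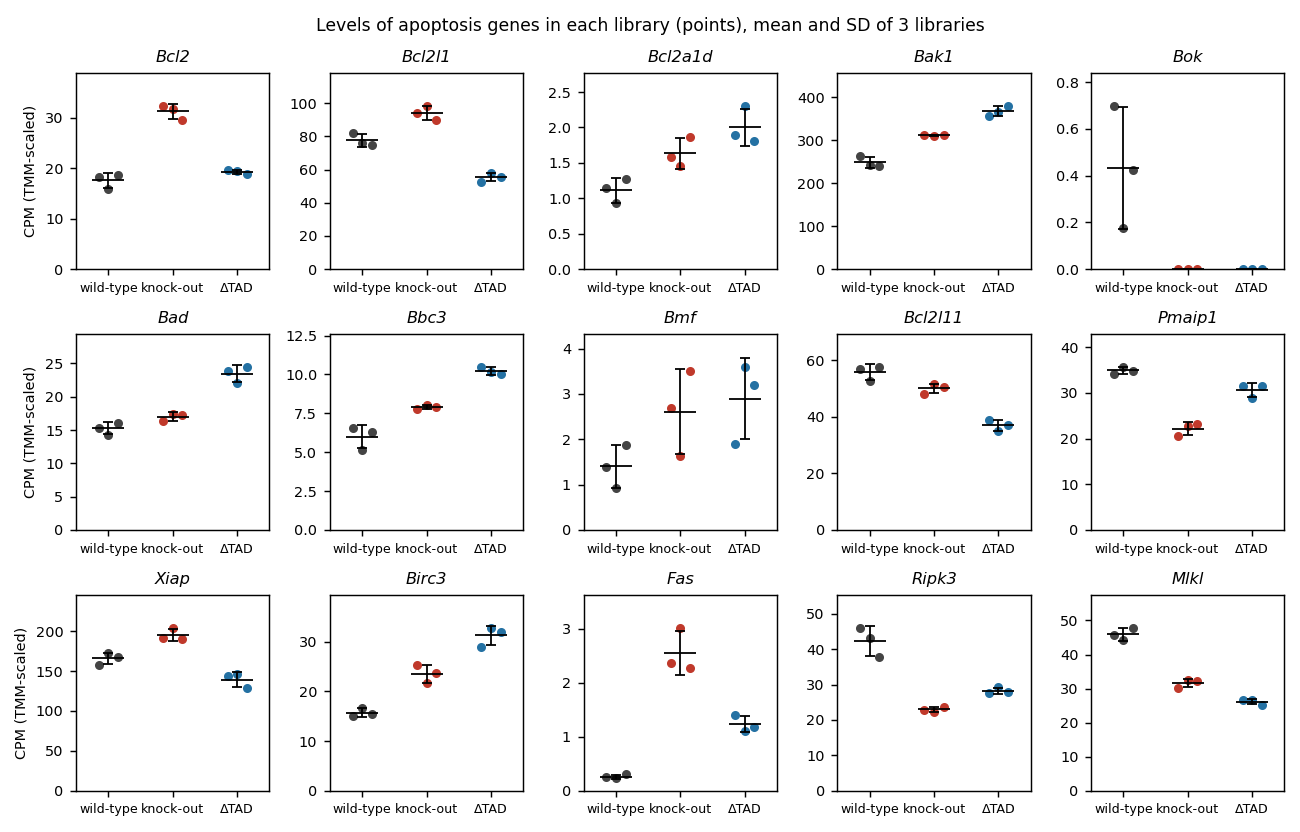
TMM-scaled CPM (y axis, starting at 0 and scaled for each gene) in each library for 15 genes, with points for the 3 libraries of wild-type, knock-out and ΔTAD macrophages and black bars for mean and SD. Bcl2l1 and Xiap are highest in knock-out and lowest in ΔTAD macrophages, Fas is highest in knock-out macrophages, and Bok is at 0 in all edited libraries.

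Genes of the caspase cascade changed little, and each change called was a rise. Of Apaf1 and the 4 caspases, Casp9 alone was called in knock-out macrophages, and all but Casp8 were called in ΔTAD macrophages, where 45.2% and 49.7% of all genes were called. Casp9, the initiator caspase of the apoptosome, measured 39.0 ± 1.48 CPM (SD, n = 3) in wild-type, 43.8 ± 1.52 CPM in knock-out and 51.8 ± 1.88 CPM in ΔTAD macrophages. The log2 ratio was 0.41 in ΔTAD (edgeR adjusted p = 1.10e-07) and 0.17 in knock-out macrophages (edgeR adjusted p = 0.00671, lost in 8 of 18 alternatives). The 23 tested genes within 1 Mb of Casp9 had median log2 ratios to wild-type of 0.319 (ΔTAD) and 0.0276 (knock-out). The part of this in the change of Casp9 was not tested. In ΔTAD macrophages Casp2, an initiator tied to genotoxic stress, rose by a log2 ratio of 0.26 (edgeR adjusted p = 2.56e-05, lost in 1 of 18 alternatives). The executioner Casp6 (log2 0.36, edgeR adjusted p = 0.00859) and the scaffold Apaf1 (log2 0.13, edgeR adjusted p = 0.00417) were also called, and these calls were lost in 11 and 7 of 18 alternatives. Casp8, the initiator of the death receptor route, had 54.7 ± 0.470 CPM in wild-type (SD, n = 3), 55.9 ± 0.965 CPM in knock-out and 58.3 ± 0.192 CPM in ΔTAD macrophages, with log2 ratios of 0.03 and 0.09 (edgeR adjusted p = 0.519 and 0.0435).

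Among the inhibitors of apoptosis, Birc3 rose in both edited genotypes and Xiap went in opposite directions. Birc3 encodes cIAP2, a ubiquitin ligase of the TNF receptor complex and a known target of NF-κB. It had 15.01, 16.7 and 15.5 CPM in wild-type, 25.3, 21.6 and 23.8 CPM in knock-out and 29.0, 32.8 and 31.9 CPM in ΔTAD libraries. Every edited library lay above the wild-type ones and every ΔTAD library above the knock-out ones. Birc3 was 1.504-fold higher in knock-out (log2 0.59, standard error 0.0770, edgeR adjusted p = 4.75e-07) and 2-fold higher in ΔTAD macrophages (log2 1.0, standard error 0.0735, edgeR adjusted p = 1.73e-11).

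Xiap, whose protein blocks the active caspases directly, had 158.1, 172.2 and 167.2 CPM in wild-type, 191.3, 204.5 and 190.1 CPM in knock-out and 143.5, 145.8 and 128.4 CPM in ΔTAD libraries. As for Bcl2l1, the knock-out libraries were highest and the ΔTAD libraries lowest. Xiap was at log2 0.24 in knock-out (standard error 0.0449, edgeR adjusted p = 8.33e-05), −0.25 in ΔTAD (standard error 0.0455, edgeR adjusted p = 3.67e-05) and 0.49 in the direct comparison (standard error 0.0452, edgeR adjusted p = 5.32e-09). Diablo, the mitochondrial protein that displaces XIAP, fell in ΔTAD macrophages (log2 −0.35, standard error 0.104, edgeR adjusted p = 0.00536, lost in 3 of 18 alternatives) and had −0.05 in knock-out macrophages (edgeR adjusted p = 0.733). It shares 1193 exonic bases with Gm49027 on the same strand. Birc2, the gene of cIAP1 and a neighbour of Birc3 on chromosome 9, was not called, with 0.05 and −0.01 (edgeR adjusted p = 0.598 and 0.897).

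The death receptor gene Fas, which the filter kept only through the edited genotypes, was close to the floor in wild-type macrophages, with 5, 4 and 5 counts, and had 45, 50 and 40 counts in knock-out and 20, 23 and 25 counts in ΔTAD libraries. After scaling these were 0.249, 0.231 and 0.303 CPM in wild-type, 2.37, 3.02 and 2.27 CPM in knock-out and 1.40, 1.10 and 1.19 CPM in ΔTAD libraries. The genotypes did not overlap, and knock-out macrophages were highest. Fas was 9.56-fold higher in knock-out (log2 3.26, standard error 0.307, edgeR adjusted p = 1.89e-09) and 4.58-fold higher in ΔTAD macrophages (log2 2.19, standard error 0.354, edgeR adjusted p = 9.04e-06), and knock-out macrophages held 2.09-fold more than ΔTAD macrophages (log2 1.06, standard error 0.220, edgeR adjusted p = 0.000378). With every gene of at least 1 count kept, the log2 ratio of Fas to wild-type was 3.26 for knock-out and 2.22 for ΔTAD macrophages. Even so, per length Fas reached only 1.24 ± 0.198 RPKM in knock-out macrophages (SD, n = 3). Fas lies on chromosome 19, and the 9 tested genes within 1 Mb of it had median log2 ratios to wild-type of 0.85 (knock-out) and 0.17 (ΔTAD).

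Other components of the receptor complex changed less. Cflar, the brake on caspase-8, rose in knock-out macrophages from 87.7 ± 3.83 to 111.9 ± 3.98 CPM (SD, n = 3; log2 0.35, edgeR adjusted p = 1.46e-07) and was 89.3 ± 6.03 CPM in ΔTAD macrophages (log2 0.02, edgeR adjusted p = 0.693). The direct comparison called this difference (log2 0.33, edgeR adjusted p = 1.09e-06). The adaptor Fadd was at log2 −0.20 for knock-out and −0.07 for ΔTAD macrophages (edgeR adjusted p = 0.0256 and 0.402). Tnfrsf10b, the mouse TRAIL receptor, had between 6 and 17 counts per library and was not called, with 0.51 and −0.33 (edgeR adjusted p = 0.273 and 0.518).

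Both genes of necroptosis fell in both edited genotypes. Ripk3, the kinase that phosphorylates MLKL, had 46.1, 43.2 and 37.8 CPM in wild-type, 22.9, 22.4 and 23.6 CPM in knock-out and 27.6, 29.2 and 27.9 CPM in ΔTAD libraries. No edited library reached the wild-type range. It fell 1.85-fold in knock-out (log2 −0.89, standard error 0.0673, edgeR adjusted p = 3.85e-11) and 1.502-fold in ΔTAD macrophages (log2 −0.59, standard error 0.0647, edgeR adjusted p = 2.64e-08). Mlkl, the pore-forming executioner, had 45.6, 44.3 and 47.9 CPM in wild-type, 30.3, 32.6 and 32.2 CPM in knock-out and 26.7, 26.6 and 25.2 CPM in ΔTAD libraries. Its order differed from that of Ripk3, with ΔTAD libraries the lowest. Mlkl fell 1.45-fold in knock-out (log2 −0.54, standard error 0.0544, edgeR adjusted p = 7.14e-09) and 1.76-fold in ΔTAD macrophages (log2 −0.81, standard error 0.0556, edgeR adjusted p = 4.68e-12). In the direct comparison, knock-out macrophages had 1.23-fold less Ripk3 (edgeR adjusted p = 0.00136, lost in 1 of 18 alternatives) and 1.21-fold more Mlkl (edgeR adjusted p = 0.000471).

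C/EBP proteins bind palindromic sites built from TTGC half-sites, and the name of the family comes from the CCAAT box, which NF-Y also binds. The 250 bases before the RefSeq start sites (GRCm38.p6) were therefore searched on both strands for the letters CCAAT and TTGCNNAA, and 30 of the 33 genes had such a sequence, 41 in all. CCAAT was found in 9 of the 41 (22.0%), against 33.8% of all 32851 promoters, and TTGCNNAA in 4 of the 41 (9.8%), against 9.6% of all promoters. The 4 belong to Bid, Bmf and Cflar, and they are printed below with that of Fas, for its high ratio to wild-type, in which neither was found. They are written 5′ to 3′ on the strand of the gene, and capitals mark matches on either strand. Fas lies at chr19:34290409-34290658 (plus strand), Bid at chr6:120916825-120917074 (minus strand), Bmf at chr2:118544588-118544837 and chr2:118547600-118547849 (minus strand), and Cflar at chr1:58711241-58711490 (plus strand).
Fas: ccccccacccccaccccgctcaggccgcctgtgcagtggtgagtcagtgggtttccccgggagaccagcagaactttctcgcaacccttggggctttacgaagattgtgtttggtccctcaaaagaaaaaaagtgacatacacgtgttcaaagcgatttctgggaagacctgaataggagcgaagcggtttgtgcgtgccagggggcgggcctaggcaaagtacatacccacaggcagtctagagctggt
Bid: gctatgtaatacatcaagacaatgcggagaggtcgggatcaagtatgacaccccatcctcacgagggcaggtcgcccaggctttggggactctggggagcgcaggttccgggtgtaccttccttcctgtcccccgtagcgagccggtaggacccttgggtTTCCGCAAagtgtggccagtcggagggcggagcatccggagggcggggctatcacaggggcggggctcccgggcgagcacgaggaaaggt
Bmf, first promoter: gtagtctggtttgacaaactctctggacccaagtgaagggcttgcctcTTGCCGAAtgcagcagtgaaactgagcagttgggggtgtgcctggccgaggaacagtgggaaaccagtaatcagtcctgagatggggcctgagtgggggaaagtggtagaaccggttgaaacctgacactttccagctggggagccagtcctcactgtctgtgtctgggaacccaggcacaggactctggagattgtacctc
Bmf, second promoter: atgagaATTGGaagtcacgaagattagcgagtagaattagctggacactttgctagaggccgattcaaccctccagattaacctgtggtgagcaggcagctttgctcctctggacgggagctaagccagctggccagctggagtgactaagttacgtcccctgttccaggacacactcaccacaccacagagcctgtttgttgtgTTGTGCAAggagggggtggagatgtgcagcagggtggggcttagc
Cflar: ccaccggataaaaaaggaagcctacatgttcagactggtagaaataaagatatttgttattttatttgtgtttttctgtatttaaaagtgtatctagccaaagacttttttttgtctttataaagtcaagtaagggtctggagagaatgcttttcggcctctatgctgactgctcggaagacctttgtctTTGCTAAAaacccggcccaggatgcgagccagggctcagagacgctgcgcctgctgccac
The TTGCNNAA match starts 90 bases before the start site in Bid, 202 and 45 bases in the Bmf promoters and 60 bases in Cflar, and the CCAAT match in the second Bmf promoter starts 244 bases before it. Levels of these genes differed in direction, with Bid lower in both edited genotypes, Bmf higher in both and Cflar higher in knock-out macrophages. A match of letters is a description of the sequence and does not show binding.

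A wider set of 61 apoptosis genes outside the 33 was examined in the same model, of which 48 were tested. In knock-out macrophages 28 were called (58.3%, against 45.2% of all genes), 12 higher and 16 lower, with a median log2 ratio of −0.05 over the 48. In ΔTAD macrophages 26 were called (54.2%, against 49.7%), 18 higher and 8 lower, with a median of 0.12 (with library size as the only scaling 21, of which 11 higher and 10 lower). Between knock-out and ΔTAD macrophages 26 were called (54.2%, against 33%), 4 higher and 22 lower in knock-out. With library size as the only scaling this last number was 13, 6 higher and 7 lower.

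Among the mitochondrial genes of this set, 2 of 14 were higher and 5 lower in knock-out, and 5 higher and 3 lower in ΔTAD macrophages. These were 50% and 57.1% of the list, near the 45.2% and 49.7% of all genes. Bnip3l, a mitophagy receptor with a BH3-like motif, rose 1.77-fold in knock-out and 1.995-fold in ΔTAD macrophages (log2 0.82 and 0.996, edgeR adjusted p = 7.01e-12 and 9.86e-14). Bnip1 rose in both (log2 0.42 and 0.52, edgeR adjusted p = 2.98e-06 and 8.15e-08), and like Bak1 it lies on chromosome 17. Ppif, the gene of cyclophilin D, fell in both (log2 −0.54 and −0.40, edgeR adjusted p = 5.25e-09 and 4.52e-07). Of 8 genes of the executioner step, 2 were higher and 3 lower in knock-out, and 3 higher and 2 lower in ΔTAD macrophages (62.5% in each, against 45.2% and 49.7% of all genes). Xaf1, an antagonist of XIAP, was low, and the filter on low counts kept it only through knock-out macrophages, where it was higher. It had 0.299, 0.579 and 0.484 CPM in wild-type and 1.21, 1.33 and 1.02 CPM in knock-out libraries. The log2 ratio was 1.40 in knock-out (edgeR adjusted p = 0.00142, lost in 1 of 17 alternatives) and 0.51 in ΔTAD macrophages (edgeR adjusted p = 0.270). Birc6, a large inhibitor of apoptosis on chromosome 17, rose in both (log2 0.55 and 0.37, edgeR adjusted p = 6.01e-14 and 7.43e-11). Dffb, the caspase-activated DNase, fell in both (log2 −0.38 and −0.39, edgeR adjusted p = 0.00817 and 0.00640), and each of these calls was lost in 6 of 18 alternatives.

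In the death receptor list 5 of 9 genes were higher and 1 lower in knock-out, and 6 were higher and 0 lower in ΔTAD macrophages (66.7% called in each, against 45.2% and 49.7% of all genes, of which 22.8% and 26.3% higher). Ripk1, the kinase shared by survival and death signalling, rose in both (log2 0.40 and 0.52, edgeR adjusted p = 1.18e-09 and 8.52e-12), in the opposite direction to Ripk3. Tnfrsf1a, the main receptor for TNF, also rose in both (log2 0.37 and 0.47, edgeR adjusted p = 5.00e-08 and 5.17e-10). Traf1 rose 1.54-fold in knock-out macrophages (log2 0.63, edgeR adjusted p = 9.52e-05) and had 0.14 in ΔTAD macrophages (edgeR adjusted p = 0.374).

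Of 17 p53-related and stress genes, 3 were higher and 7 lower in knock-out, and 4 were higher and 3 lower in ΔTAD macrophages. That was 58.8% of the list against 45.2% of all genes in knock-out, and 41.2% against 49.7% in ΔTAD macrophages. Phlda3, a p53 target that restrains AKT, had 13.1, 12.8 and 13.4 CPM in wild-type, 4.11, 4.71 and 4.53 CPM in knock-out and 15.4, 14.5 and 15.4 CPM in ΔTAD libraries. The knock-out libraries alone were low, 2.95-fold below wild-type (log2 −1.56, standard error 0.100, edgeR adjusted p = 1.55e-12), with 0.20 in ΔTAD macrophages (edgeR adjusted p = 0.0306). Mdm2, the ubiquitin ligase that keeps p53 low and itself a p53 target, rose 2.17-fold in knock-out and 1.73-fold in ΔTAD macrophages (log2 1.12 and 0.79, edgeR adjusted p = 1.58e-19 and 1.00e-16). Sesn1 rose in ΔTAD macrophages (log2 0.74, edgeR adjusted p = 1.98e-08) and had 0.17 in knock-out macrophages (edgeR adjusted p = 0.103). The other 6 genes that fell in knock-out macrophages, named after their values were seen, were Ccng1 (log2 −0.70), Zmat3 (−0.60), Cdkn1a (−0.51), Aen (−0.48), Cradd (−0.44) and Sesn2 (−0.42). Of these, Aen (log2 −0.26) and Sesn2 (−0.52) were also called lower in ΔTAD macrophages. Ccng1 (−0.09), Zmat3 (−0.12), Cdkn1a (0.02) and Cradd (−0.09) were not called there. Cdkn1a lies on chromosome 17. Trib3, also named afterwards, rose in knock-out macrophages (log2 0.70, edgeR adjusted p = 0.000697) and had 0.34 in ΔTAD macrophages (edgeR adjusted p = 0.0900). Trp53 itself rose in both genotypes (log2 0.19 and 0.42, edgeR adjusted p = 0.000116 and 5.30e-10), the knock-out call being lost in 1 of 18 alternatives.

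**Figure D4:**
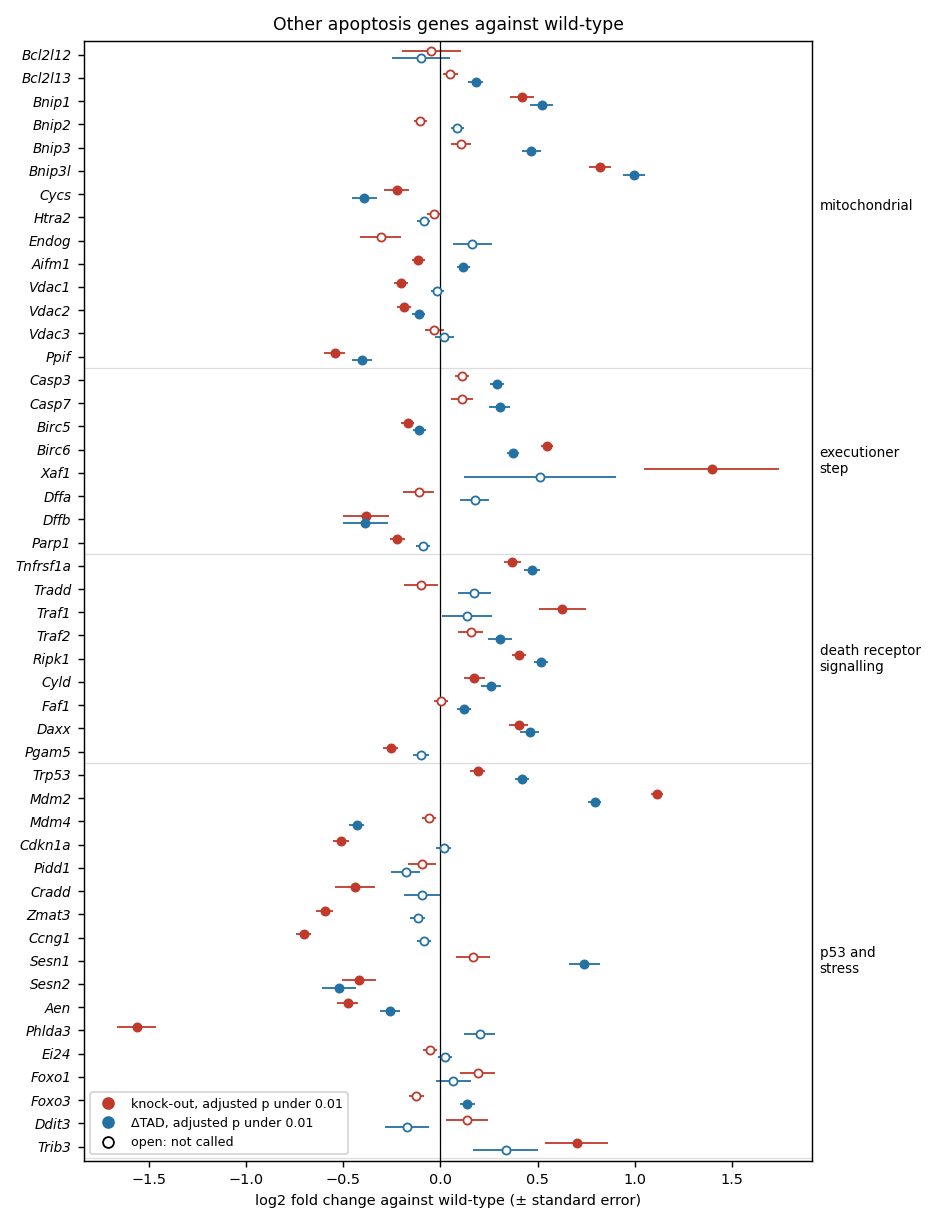
Log2 ratio against wild-type with its standard error (x axis) for the 48 tested genes of the wider apoptosis set, in 4 lists. Red points stand for knock-out and blue points for ΔTAD macrophages, filled where the adjusted p-value was under 0.01. Phlda3 lies farthest to the left, at −1.56 in knock-out against 0.20 in ΔTAD macrophages, and Mdm2 lies to the right in both at 1.12 and 0.79.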

How the data were processed

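RNA was depleted of ribosomal RNA and sequenced as single reads. After trimming (Trimmomatic) and alignment to GRCm38 (Hisat2), the authors obtained gene counts with HTSeq on the Ensembl annotation. The submitters' processing notes name Trimmomatic 0.36 and HISAT2 2.3.4.3, and the paper's methods name other versions. What the authors deposited are raw read counts per gene, 1 list per library, without normalization. The 5 tally lines were set aside, and 46.65% to 53.23% of all counted records fell on genes. The mode and strand setting of the counting are not given in the sources used here. Genotypes and replicate numbers were taken from the labels. The replicate numbers are those of the donor labels, and the sample titles number the last library of each genotype differently.

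Tests were run with edgeR 4.0.16 (R 4.3.3). Low genes were removed with filterByExpr (minimum count 10, minimum total count 15), and the rest were scaled by TMM and fitted in 1 quasi-likelihood model of the 9 libraries without a block. The common biological coefficient of variation was 0.0468. An adjusted p-value under 0.01, the paper's threshold, made a call. A standard error is the size of the log2 ratio over the root of its F statistic. Positions and exon lengths are those of GENCODE M21 (GRCm38).

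The genes and lists were chosen with earlier results of these data known. Values in every library are given for those of the 33 genes that were called in at least 1 comparison with a log2 ratio of 0.58 or more in size and for those at or under 3 counts in every library of 1 genotype but not of another. Xiap and Bak1 were added after their values were seen. Of each further list, the 3 called genes with the largest change against wild-type were named. As alternatives served limma-voom (limma 3.58.1), DESeq2 1.42.0, other scalings and filters, models of the 2 genotypes compared, a replicate block, other thresholds and leaving out each library. The steps were tested on simulated counts.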

Additional observations from a re-analysis of the deposited data

Results flagged for a closer look

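Bcl2l1 and Xiap were called against wild-type in both edited genotypes but in opposite directions, higher in knock-out and lower in ΔTAD macrophages. The direct test of the difference was past the threshold for each. Both genes were picked for these calls, and in a single model the direct ratio follows from the ratios to wild-type. The direct test is therefore no separate evidence. For Bcl2l1 the log2 ratio of knock-out against ΔTAD macrophages was 0.76 (standard error 0.0432, edgeR adjusted p = 6.78e-13), and it lay between 0.73 and 0.83 in 18 alternatives. For Xiap it was 0.49 (standard error 0.0452, edgeR adjusted p = 5.32e-09), between 0.43 and 0.56 in 18 alternatives. Knock-out libraries lay above wild-type and ΔTAD libraries below wild-type for both genes, in 3 of 3 libraries each. Groups of 3 libraries are too small for a test of single outlying libraries.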

How the results depend on the processing

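No called log2 ratio turned its sign in any alternative run. Of the 18 calls in knock-out macrophages, 13 held in each of the 18 alternatives that kept the threshold (17 for Fas, which a stricter filter left out), as did 13 of 21 in ΔTAD macrophages and 10 of 16 in the direct comparison. Requiring a log2 ratio of 1 or more in size left 1 of the 33 genes in knock-out, 3 in ΔTAD macrophages and 1 in the direct comparison, and 3, 0 and 1 genes of the wider set by edgeR, where Bnip3l in ΔTAD macrophages was just under this size at 0.996. With library size as the only scaling, which moved the median gene by −0.0852 in ΔTAD macrophages, 13 genes of the wider set were called in the direct comparison. The TMM factor was 0.888 for ΔTAD replicate 1, where CT010467.1 held 11.0% of the counts, and 0.9993 to 1.027 for the other libraries. The part of this library in the lower number was not tested. Leaving out 1 library gave 15 to 18 of the 33 genes in knock-out, 14 to 21 in ΔTAD macrophages (14 without ΔTAD replicate 2, 18 without ΔTAD replicate 1) and 15 to 17 in the direct comparison. Libraries with the same replicate number did not deviate together (correlations of −0.0717 to 0.02), and with the number as a replicate block 16, 19 and 16 genes were called. Counts under 100 in every library limit Fas, Bmf, Tnfrsf10b, the Bcl2a1 genes and the untested Bok, Bik and Hrk. Bbc3 was under 100 only in wild-type replicate 2, with 89 counts.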

Other observations

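A few low-count genes of the apoptosis lists entered no test, and their counts, chosen after the values were seen, are given as such. Zbp1, a nucleic acid sensor that activates RIPK3, had 4, 5 and 1 counts in wild-type, 14, 10 and 8 in knock-out and 5, 0 and 2 in ΔTAD libraries. Fasl, the ligand of FAS, had 0 counts in all 9 libraries, and Tnfsf10, which encodes TRAIL, had at most 3 in any library.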
